A study of Homo sapiens with 9 samples.

Results

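Genes that feed back on ERK signalling, 10 in number, were followed in KHM-5M cells, which the labels give as a thyroid cancer cell line. The study lists this line among those with both mutant BRAF and a mutant TERT promoter. The genes are the dual-specificity phosphatase genes DUSP1, DUSP4, DUSP5, DUSP6 and DUSP7, the Sprouty genes SPRY2 and SPRY4, their relatives SPRED1 and SPRED2, and PHLDA1. These genes were chosen by name, but with earlier results of these data known. All 10 were found among the 58735 genes of the deposited table, each as 1 protein-coding entry. Cells were kept for 24 h with DMSO, YK-4-279's vehicle, or with 0.3 μM or 1 μM of this compound, a small molecule used as an inhibitor of ETS transcription factors. Each of the 3 groups had 3 samples, and the labels do not say whether these came from separate cultures, so p-values measure only the spread between these samples. Only RNA was measured, in bulk, so a rise in every cell and a rise in some of the cells cannot be told apart.

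ERK is the last kinase of the cascade that runs from receptor tyrosine kinases through RAS, RAF and MEK, and it drives growth in many thyroid cancers. Active ERK switches on genes whose products limit it. The dual-specificity phosphatases remove phosphate from MAP kinases, Sprouty and SPRED proteins act further up, at the level of RAS and RAF, and PHLDA1 is an intracellular protein whose RNA follows ERK activity in many cancer lines. The RNA of such genes is therefore often used as a readout of the pathway.

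Counts per sample summed to 16903251 to 18238884. At this depth 3 counts, the limit that a count of 0 allows, correspond to 0.164 to 0.177 CPM, the count relative to the sum of its sample. This allows for counting error alone. All members lay above it in every sample. Of 7 thyroid markers only PAX8 had a mean FPKM of at least 1, whereas 4 of 5 epithelial markers reached that level. The summed FPKM of the fibroblast markers was 49.1 to 66.5 in DMSO and 43.0 to 48.5 at 1 μM, with COL1A1, LUM and PDGFRB at or over 1, while no leukocyte or endothelial marker reached 1. The part of these genes in the results was not tested.

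Replicate 3 of the 0.3 μM group stood apart for the members. It held the highest FPKM of its group in 10 of 10 members, although it was the highest in only 36.4% of the 14171 genes with a mean of at least 1 CPM. Replicate 2 of DMSO was the lowest of its group in 9 of 10 members, against 38% of those genes. Without DMSO replicate 2 the median log2 fold change of the members at 1 μM was 0.33, against 0.42 with it, and the same genes passed the test described below.

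In DMSO the members covered a wide range of FPKM, the read count scaled to gene length and sequencing depth, which allows levels of different genes to be compared. PHLDA1 was highest with 35.0 ± 1.42 FPKM (SD, n = 3), followed by DUSP1 with 30.4 ± 1.30. SPRED2 (9.83 ± 0.775), SPRED1 (9.66 ± 0.720), SPRY2 (9.61 ± 0.985) and DUSP7 (8.51 ± 0.301) formed a middle group in which neighbours in this order overlapped. DUSP5 (4.76 ± 0.791) and SPRY4 (4.61 ± 0.404) also overlapped with each other. DUSP6 (3.31 ± 0.539) and DUSP4 (0.528 ± 0.0243) were lowest, and each lay below all samples of the gene before it. At 1 μM of the compound the order at the top by FPKM was turned. DUSP1 reached 47.4 ± 1.14 FPKM and PHLDA1 38.3 ± 1.07, with all 3 samples of DUSP1 above all 3 of PHLDA1. This order depends on the deposited gene lengths, 2019 bases for DUSP1 and 8069 for PHLDA1. The PHLDA1 entry extends upstream of the RefSeq start used below. In CPM, which ignores length, PHLDA1 stayed higher at 1 μM, with a mean of 308 against 95.4.

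**Figure D1:**
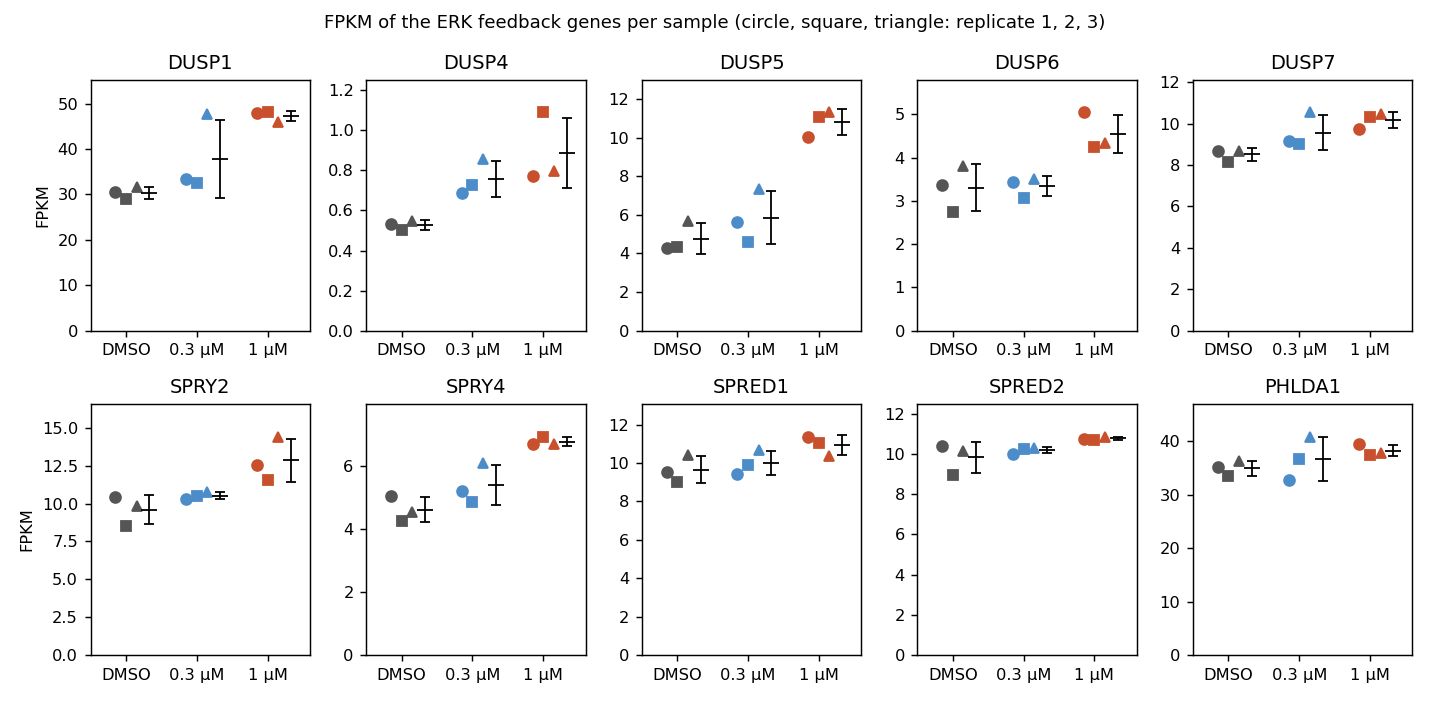
FPKM (vertical axes, starting at 0) of each of the 10 genes in the 9 samples, with DMSO in grey, 0.3 μM in blue and 1 μM of the compound in orange-red. Symbols are single samples by replicate number, and the bar beside them is the mean ± SD (n = 3). DUSP5 moves from between 4.26 and 5.67 FPKM in DMSO to between 10.04 and 11.3 FPKM at 1 μM, while SPRED1, SPRED2 and PHLDA1 shift little, and replicate 3 (triangle) is the highest sample of the 0.3 μM group in all panels.

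To examine whether the feedback genes responded to 1 μM of the compound, this group was compared with DMSO. The fitted change was above 0 in all 10 members, and 7 rose significantly, namely DUSP1, DUSP4, DUSP5, DUSP6, DUSP7, SPRY2 and SPRY4. Significance here means an adjusted p under 0.05 in edgeR (quasi-likelihood test), with p-values adjusted by Benjamini-Hochberg over all genes tested. Of the 15617 genes tested, 17.6% passed in either direction and 7.67% passed as higher. The members were chosen with earlier results of these data known, so these shares are a description and not a test. The median log2 fold change was 0.42 over the members and -0.01 over all genes tested. In 9 of 10 members all 3 treated samples had a higher FPKM than all 3 DMSO samples, a separation found in 20% of the genes tested, and SPRED1 was the exception. When a change over 1.5-fold, the cutoff of the study, was required beside edgeR's adjusted p, 3 members were higher, DUSP1, DUSP4 and DUSP5, against 1.56% of protein-coding genes. The study combined its cutoff with p-values from DESeq2, so the rule used here is not the same.

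Among the phosphatases that act in the nucleus, DUSP5 (ENSG00000138166, GRCh38 chromosome 10 from 110497838 to 110511544), which is specific for ERK, had the largest rise of the 10 genes. Its counts were 193, 206 and 253 in DMSO and 483, 502 and 500 at 1 μM. All treated samples were thus far above the DMSO samples, and the treated samples lay close together. The log2 fold change was 1.17 (standard error 0.11), or 2.25-fold, with an adjusted p of 1.90e-05 from edgeR. It stood above 99.6% of all genes tested. Whichever sample was omitted, the change stayed between 1.10 and 1.31 on the log2 scale and the call was kept.

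DUSP1 (ENSG00000120129, chromosome 5 from 172768090 to 172771195), an immediate early phosphatase that acts on p38 and JNK as well as ERK, had FPKM values of 30.6, 29.0 and 31.6 in DMSO and of 48.0, 48.1 and 46.1 at 1 μM. The groups did not overlap, and the spread within each was small. The log2 fold change was 0.62 (standard error 0.06), with an adjusted p of 2.42e-05 by edgeR, and it stayed between 0.60 and 0.65 with any sample left out.

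DUSP4 (ENSG00000120875, chromosome 8 from 29333064 to 29350668), a further nuclear phosphatase for ERK and other MAP kinases, was the scarcest member. It had 67, 66 and 68 counts in DMSO and 103, 137 and 98 at 1 μM. Every treated sample was higher, with replicate 2 standing well above the other two. The log2 fold change was 0.73 (standard error 0.18), with an adjusted p of 0.0127 by edgeR. The call was lost without that replicate, with a log2 fold change of 0.56 and an adjusted p of 0.0729 in edgeR. Over all genes, 1755 passed in that fit, against 2752 with all samples.

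The phosphatases of the cytoplasm rose by less in fitted value, a difference that was not tested. DUSP6 (ENSG00000139318, chromosome 12 from 89347232 to 89353271), the classical ERK-specific feedback phosphatase, had FPKM values of 3.38, 2.74 and 3.81 in DMSO and of 5.05, 4.24 and 4.35 at 1 μM. The groups did not overlap, but DMSO replicate 3 came close to the lower treated samples. The log2 fold change was 0.44 (standard error 0.12, adjusted p 0.0199 by edgeR). Without replicate 1 of the 1 μM group, the highest sample, it was 0.37 with an adjusted p of 0.0875 in edgeR, and without DMSO replicate 2, the lowest sample, it was 0.33 with an adjusted p of 0.0409.

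DUSP7 (ENSG00000164086, chromosome 3 from 52048919 to 52056550), the close relative of DUSP6, gave 8.69, 8.16 and 8.68 FPKM in DMSO and 9.75, 10.3 and 10.46 FPKM at 1 μM. All treated samples were higher, by a small margin that was nonetheless larger than the spread within groups. Its log2 fold change of 0.24 (standard error 0.07, adjusted p 0.0230 by edgeR) was the smallest among the genes that passed. The call was lost without DMSO replicate 3 and without replicate 2 or 3 of the 1 μM group, with adjusted p of 0.0669, 0.0789 and 0.101 in edgeR, although the log2 fold change stayed between 0.22 and 0.28.

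Both Sprouty genes rose. SPRY4 (ENSG00000187678, chromosome 5 from 142310427 to 142326455), an inhibitor of receptor-driven RAS activation, had FPKM values of 5.05, 4.25 and 4.54 in DMSO and of 6.68, 6.92 and 6.70 at 1 μM. The treated samples were all higher and nearly equal to each other. Its log2 fold change was 0.54 (standard error 0.08, adjusted p 0.000550 by edgeR), and the call was kept with any sample left out. SPRY4-AS1, a scarce transcript of the opposite strand with a mean of 12.4 counts, overlaps SPRY4, and no other member overlapped any gene that averaged 10 counts or more.

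SPRY2 (ENSG00000136158, chromosome 13 from 80335976 to 80340951), a Sprouty protein that also binds the ubiquitin ligase CBL, had FPKM values of 10.4, 8.53 and 9.86 in DMSO and of 12.6, 11.6 and 14.4 at 1 μM. The groups did not overlap, and the treated samples were spread widely. The log2 fold change was 0.40 (standard error 0.10, adjusted p 0.0124 by edgeR). Without replicate 3 of the 1 μM group, its highest sample, it was 0.32 with an adjusted p of 0.0677 in edgeR, and without DMSO replicate 2 it was 0.33 with an adjusted p of 0.0198.

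The SPRED genes and PHLDA1 did not pass. SPRED1 (ENSG00000166068, chromosome 15 from 38252326 to 38357249), which brings the RAS inhibitor neurofibromin to the membrane, had FPKM values of 9.55, 9.004 and 10.4 in DMSO and of 11.4, 11.1 and 10.4 at 1 μM. Here the groups overlapped, and the log2 fold change was 0.16 (95% interval 0.02 to 0.31, adjusted p 0.116 by edgeR), or 0.12 without DMSO replicate 2. SPRED2 (ENSG00000198369, chromosome 2 from 65310851 to 65432637), its paralogue, had FPKM values of 10.4, 8.94 and 10.2 in DMSO and of 10.8, 10.7 and 10.9 at 1 μM. The treated samples were just above the DMSO samples, with a log2 fold change of 0.12 (95% interval -0.04 to 0.27, adjusted p 0.297 by edgeR), which fell to 0.06 without DMSO replicate 2.

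PHLDA1 (ENSG00000139289, chromosome 12 from 76025447 to 76033932), the most abundant member in DMSO, had FPKM values of 35.2, 33.4 and 36.3 in DMSO and of 39.5, 37.5 and 37.8 at 1 μM. All treated samples were higher, but by little, with a log2 fold change of 0.11 (95% interval -0.003 to 0.23, adjusted p 0.168 by edgeR). The intervals of these 3 genes lay below a log2 fold change of 0.31, so the value fitted for DUSP6, 0.44, was outside them. The 95% interval of DUSP6 itself was 0.19 to 0.70 and overlapped all 3. Whether the phosphatase and Sprouty genes changed more than the SPRED genes was not tested.

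**Figure D2:**
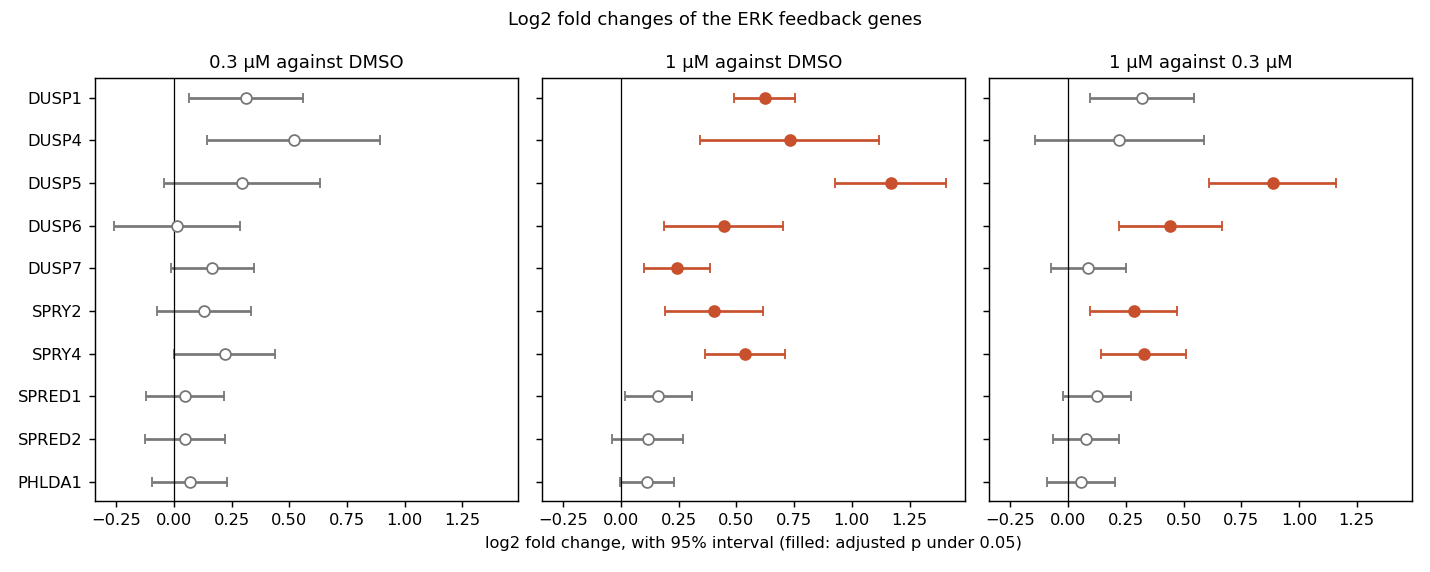
Log2 fold changes (horizontal axes) of the 10 genes in the 3 comparisons, with 95% intervals from edgeR's quasi-likelihood fit, 3 samples per group. Filled orange points have an adjusted p under 0.05, which holds for 0, 7 and 4 genes from left to right, and DUSP5 has the largest value in the middle panel (1.17).

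Summed over families, the FPKM of DUSP1, DUSP4 and DUSP5 was 33.9 to 37.8 in DMSO, 37.8 to 56.0 at 0.3 μM and 58.1 to 60.3 at 1 μM. DUSP6 and DUSP7 together went from between 10.9 and 12.5 in DMSO to between 14.6 and 14.8 at 1 μM, and SPRY2 and SPRY4 from between 12.8 and 15.5 to between 18.5 and 21.1. The sum of SPRED1 and SPRED2 moved from between 18.0 and 20.6 to between 21.2 and 22.1. The groups of these sums did not overlap between DMSO and 1 μM, a separation that 20% of the single genes tested also showed. For the SPRED sum the margin was small, 20.6 against 21.2, and neither SPRED gene passed. DUSP1 makes up most of the first sum, so that sum mainly follows this gene.

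At 0.3 μM of the compound no member passed against DMSO, and neither did any other of the 15762 genes tested by edgeR (0%). An unadjusted p under 0.05 was reached by 594 of all genes and by 3 members, DUSP1, DUSP4 and SPRY4, and DESeq2 called 0 members and 1 gene in all. Without replicate 3 of the 0.3 μM group, edgeR called 4 genes, none of them a member. The fitted change was above 0 in all 10 members, with a median log2 fold change of 0.15 against 0.00 over all genes, of which 50.3% were above 0. Without replicate 3 of the 0.3 μM group the members' median was 0.10 and 8 were above 0, with PHLDA1 at -0.01 and DUSP6 at -0.02. Without DMSO replicate 2 it was also 0.10 with 8 above 0, and DUSP6 and SPRED2 were then at -0.11 and -0.01. In 3 members, DUSP1, DUSP4 and DUSP7, all treated samples exceeded all DMSO samples in FPKM, as they did in 3.95% of the genes tested.

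DUSP4 had the largest fitted change at the lower dose. Its counts were 89, 96 and 109 at 0.3 μM, all above the 66 to 68 counts in DMSO, and its log2 fold change was 0.52 (standard error 0.18, adjusted p 0.995 by edgeR). This value changed little when single samples were left out (0.42 to 0.59).

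For several other members the value at the lower dose depended on replicate 3. DUSP1 had FPKM values of 33.3, 32.5 and 47.8 at 0.3 μM, so that replicate 3 lay within the 1 μM range while the other samples lay just above DMSO. Without replicate 3 its log2 fold change fell from 0.31 to 0.11, and that of DUSP5 from 0.29 to 0.10. SPRY4 likewise went from 0.22 to 0.12 and DUSP7 from 0.17 to 0.09. DUSP6, in contrast, had FPKM values of 3.44, 3.07 and 3.50 at 0.3 μM, inside the DMSO range, and a log2 fold change of 0.01 (95% interval -0.26 to 0.28). It was -0.02 without replicate 3 and -0.11 without DMSO replicate 2.

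The doses were next compared directly, which tests whether the change at 1 μM was larger than that at 0.3 μM. All 10 members had a fitted value above 0, except that PHLDA1 was at -0.02 without replicate 1 of the 0.3 μM group, and 4 passed the test, DUSP5, DUSP6, SPRY2 and SPRY4. Of the 15583 genes tested, 12.6% passed and 5.85% passed as higher at 1 μM. The 3 samples at 1 μM exceeded all 3 at 0.3 μM in FPKM for 5 members, these 4 and SPRED2, and for 16.6% of the genes tested.

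DUSP5 showed the clearest difference between the doses, with 262, 218 and 335 counts at 0.3 μM against 483 to 502 at 1 μM. The log2 difference was 0.89 (standard error 0.13, adjusted p 0.000377 by edgeR), and DUSP5 passed with any sample left out. DUSP6 followed with a log2 difference of 0.44 (standard error 0.11, adjusted p 0.0114 by edgeR). SPRY4 had 0.33 (standard error 0.09, adjusted p 0.0214 by edgeR) and SPRY2 0.28 (standard error 0.09, adjusted p 0.0471 by edgeR).

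The number of members that passed was sensitive to single samples. It was 2 without replicate 1 and 1 without replicate 2 of the 0.3 μM group, and 1 without replicate 1 and 2 without replicate 3 of the 1 μM group. Calls over all genes fell as well, from 1963 with all samples to 1555, 1253, 1164 and 948 in these fits, in the same order. DUSP6 then failed without replicate 2 of the 0.3 μM group (adjusted p 0.0577 by edgeR) and without replicate 1 of the 1 μM group (adjusted p 0.0704). SPRY4 passed in only 1 of the 6 fits with a sample left out, with adjusted p of up to 0.101 in edgeR, and SPRY2 in 2, with adjusted p of up to 0.258. DUSP1, with an adjusted p of 0.0605 by edgeR and a log2 difference of 0.32, passed without replicate 3 of the 0.3 μM group (0.52, adjusted p 3.68e-05). In that fit DUSP5 had a log2 difference of 1.07 and SPRY4 of 0.42.

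DUSP4 and DUSP7 had log2 differences between the doses of 0.22 (95% interval -0.14 to 0.59) and 0.09 (95% interval -0.08 to 0.25), and neither passed. For DUSP4 the fitted change from DMSO was 0.52 at 0.3 μM and 0.73 at 1 μM.

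**Figure D3:**
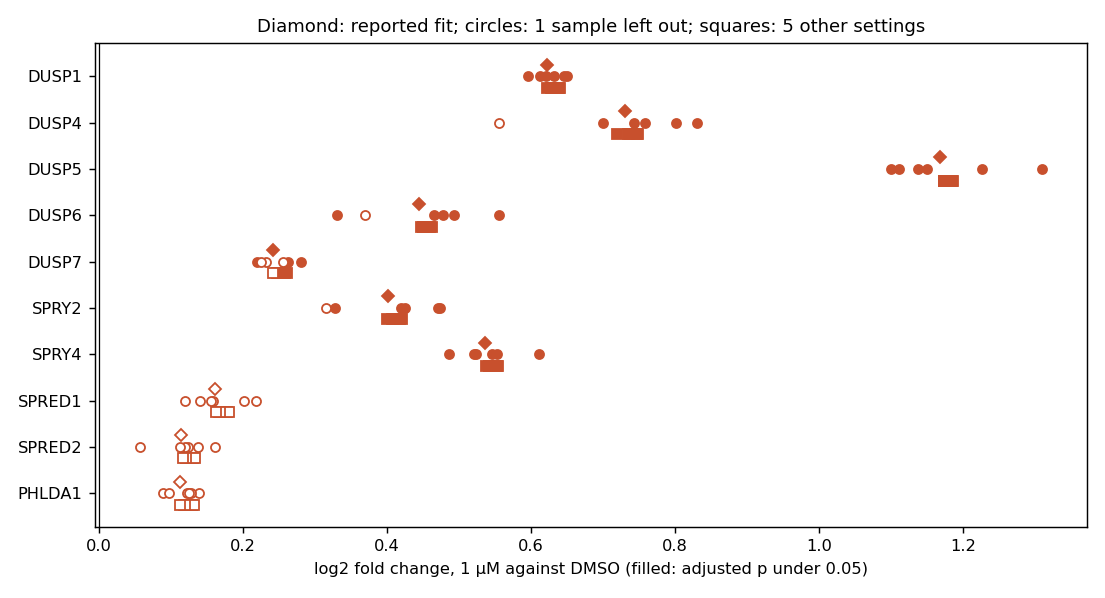
Log2 fold change at 1 μM against DMSO (horizontal axis) of each gene in the reported edgeR fit (diamond), with 1 of 6 samples left out (circles), and under DESeq2, RLE size factors, a lower count minimum of 1, a joint fit of all 9 samples and the replicate block (squares). Filled symbols have an adjusted p under 0.05. All values are above 0, DUSP1, DUSP5 and SPRY4 are filled throughout, and DUSP7 has open symbols in 4 fits.

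The promoters of these genes were examined for short motifs, because the compound is named for ETS factors and because AP-1, CREB and SRF, which bind the other motifs, are well-known regulators of immediate early genes. RefSeq windows (GRCh38.p14) from 250 bases before to 50 bases after the start were found for 8 members, with 11 windows. The table did not list DUSP4 and DUSP5. The motifs, read on both strands, were the ETS core CCGGAA, the AP-1 site TGANTCA, the cAMP response element TGACGTCA and the CArG box of SRF. The ETS core was found in 2 of the 11 windows (SPRY2 and PHLDA1) and in 17.2% of all 35116 windows of the table. The AP-1 site was in 1 (an inner start of SPRED2) and in 7.71% of all, the cAMP response element in 1 (DUSP1) and in 1.85%, and the CArG box in 0 and in 1.29%. A match describes the letters only, and the absence of one says nothing about a factor.

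The stretches around the matches of DUSP1, SPRY2 and PHLDA1 are shown, since they show the cAMP response element in DUSP1, which rose at 1 μM, and the ETS core in SPRY2, which rose, and in PHLDA1, which did not pass. All 3 are on the minus strand, are printed 5′ to 3′ along the gene, lie upstream of the RefSeq start and overlap no GENCODE exon, with the match in capitals. The stretch of PHLDA1 lies within the span of its deposited gene entry, and the others lie outside theirs. DUSP1 spans chr5:172771273-172771360, with the first base of the match 125 bases upstream of the start. SPRY2 spans chr13:80341223-80341308, with the match at 142 bases, and PHLDA1 spans chr12:76031820-76031905, with the match at 89 bases and read from the opposite strand.
DUSP1, cAMP response element: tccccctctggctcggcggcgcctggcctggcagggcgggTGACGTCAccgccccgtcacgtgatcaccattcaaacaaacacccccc
SPRY2, ETS core: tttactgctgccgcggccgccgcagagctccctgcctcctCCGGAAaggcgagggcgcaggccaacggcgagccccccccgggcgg
PHLDA1, ETS core: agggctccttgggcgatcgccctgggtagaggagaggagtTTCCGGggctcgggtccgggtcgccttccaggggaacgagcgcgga
SPRY2 and PHLDA1 both held the ETS core, and their log2 fold changes at 1 μM were 0.40 and 0.11. DUSP6, DUSP7, SPRY4 and SPRED1 held none of the motifs, and 3 of these 4 genes rose at 1 μM. Of all 10 members 7 rose, and of all genes tested 7.67%. Whether the changes were related to the motifs was not tested.

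The rest of the pathway was described from lists of genes, which were also chosen with earlier results of these data known. Of all genes tested at 1 μM, 7.67% rose and 17.6% passed in either direction, the shares to set beside the counts of each list. Among 5 further MAP kinase phosphatases, 2 rose at 1 μM and 0 fell, with a median log2 fold change of 0.32. DUSP2, an inducible nuclear phosphatase best known from immune cells, went from between 0.532 and 0.937 CPM to between 1.55 and 2.05 CPM (log2 fold change 1.35, standard error 0.34, adjusted p 0.0147 by edgeR). DUSP8, which prefers JNK and p38, rose by 0.51 on the log2 scale (standard error 0.13, adjusted p 0.0165 by edgeR). Both calls were lost in some fits with a sample left out. DUSP2 failed without DMSO replicate 3 (adjusted p 0.0716 by edgeR) or replicate 3 at 1 μM (0.0678), and DUSP8 failed without replicate 2 at 1 μM (adjusted p 0.0776 by edgeR).

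Of 12 small atypical dual-specificity phosphatases, 10 were tested and 1 rose, DUSP3, with a log2 fold change of 0.24 (adjusted p 0.0149 by edgeR). It failed without DMSO replicate 3 (adjusted p 0.0795 by edgeR) or replicate 3 at 1 μM (0.0926). The median of this list was 0.05. SPRY1, SPRY3 and SPRED3, the remaining genes of the Sprouty and SPRED families, gave 0 calls in edgeR and in DESeq2, with 1 of them at an unadjusted p under 0.05. Their median log2 fold change was 0.63, above that of the members, and it is the value of SPRY1. SPRY1 and SPRY3 were scarce, with means of 3.49 and 1.35 CPM. For SPRY3 the groups overlapped, with 0.887 to 1.29 CPM in DMSO and 1.10 to 2.17 CPM at 1 μM. SPRED3 had a log2 fold change of 0.21 (adjusted p 0.233 by edgeR), SPRY1 of 0.63 (adjusted p 0.0518 by edgeR) and SPRY3 of 0.70 (adjusted p 0.172 by edgeR).

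Among 13 other negative regulators of RAS and ERK signalling, 2 rose and 0 fell, and the median log2 fold change was -0.002. They were LRIG1, a membrane protein that lowers receptor levels (0.51, adjusted p 0.00657 by edgeR), and SH2B3, an adaptor that restrains kinase signalling (0.49, adjusted p 0.000125 by edgeR).

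The components of the cascade itself, from EGFR to the RSK kinases, gave 3 genes that rose and 0 that fell among 20 tested, with a median of 0.05. These were NRAS, a RAS gene (0.41, adjusted p 0.000601 by edgeR), EGFR, the receptor for epidermal growth factor (0.20, adjusted p 0.0172 by edgeR), and PTPN11, the phosphatase SHP2 that passes signals to RAS (0.18, adjusted p 0.0298 by edgeR). EGFR failed without replicate 1 (adjusted p 0.0574 by edgeR) or replicate 3 (0.0633) at 1 μM. PTPN11 failed without DMSO replicate 1 (adjusted p 0.0771 by edgeR) or 3 (0.0839) and without replicate 1 (0.0886) or 2 (0.0942) at 1 μM. The p38 and JNK stress kinases and their activators gave 2 higher (MAP2K3 and MAP2K4, with 0.40 and 0.33) and 1 lower (MAPK11, with -0.45) of 11, and MAP2K3 failed without replicate 2 at 1 μM (adjusted p 0.0538 by edgeR).

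A list of ERK output genes, drawn up apart from the feedback genes, held 23 tested genes of 26. Of these, 12 rose at 1 μM and 0 fell, while 7.67% of all genes tested rose. The median log2 fold change of the list was 0.26. The largest values were those of EGR1 (3.10), FOS (0.98), IER3 (0.93) and JUNB (0.83), which are early response genes. EGR1 was scarce in DMSO, at 0.117 to 0.790 CPM with its lowest sample under the limit given above, against 3.05 to 4.24 CPM at 1 μM, so its fold change rests on few counts. FOS rose from between 1.92 and 2.99 CPM in DMSO to between 4.06 and 5.04 CPM at 1 μM, IER3 from between 75.3 and 93.2 to between 152 and 161 CPM, and JUNB from between 52.7 and 58.1 to between 91.3 and 104 CPM. Of the 12 genes, PLAUR and ETV5 failed with single samples left out, with adjusted p of up to 0.0932 and 0.172 in edgeR. For PLAUR these were DMSO replicate 3 and replicates 2 and 3 at 1 μM, and for ETV5 also DMSO replicate 1. Between the doses, 9 of the 23 genes were higher at 1 μM, against 5.85% of all genes tested. At 0.3 μM 0 of 22 passed in edgeR or DESeq2, with 3 at an unadjusted p under 0.05. The other lists also held 0 calls at 0.3 μM in both tools, with 1 gene of the negative regulators at an unadjusted p under 0.05.

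**Figure D4:**
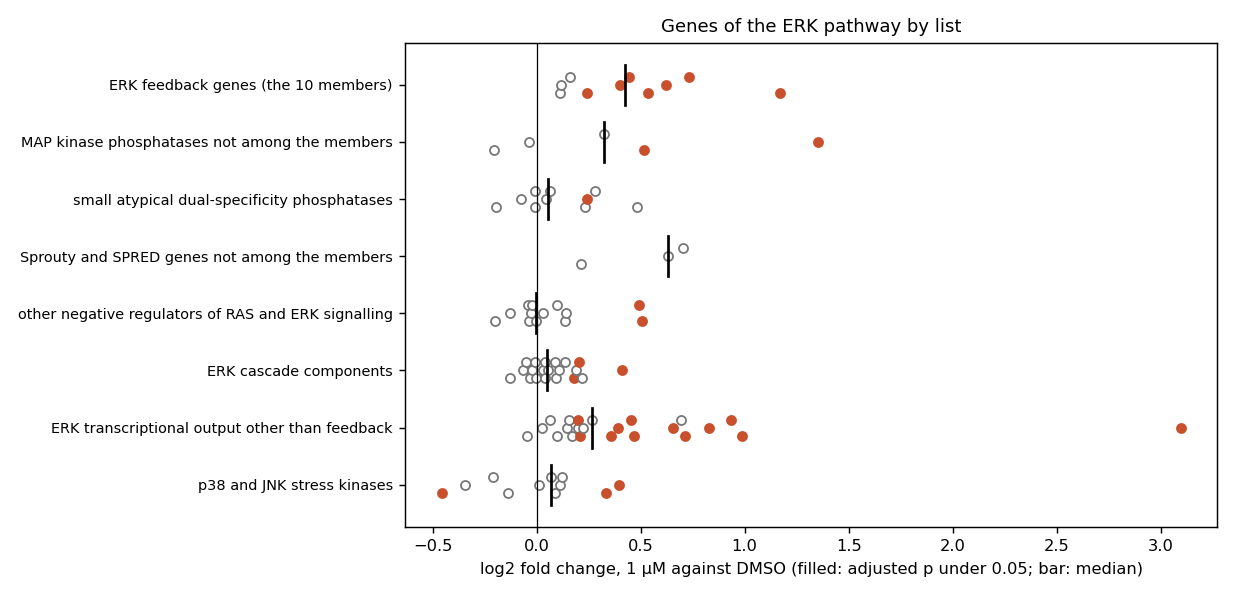
Log2 fold change at 1 μM against DMSO (horizontal axis) of each tested gene, by list, with the 10 feedback genes at the top. Filled points have an adjusted p under 0.05 from edgeR and the vertical bar is the median of the list. The medians are 0.42 for the feedback genes, 0.63 for the other Sprouty and SPRED genes (3 genes, none called), 0.32 for the other MAP kinase phosphatases, 0.26 for the other ERK output genes, 0.07 for the stress kinases, 0.05 for the atypical phosphatases and the cascade components, and -0.002 for the other negative regulators.

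For each member, the 2 protein-coding genes with the most similar log2 CPM over the 9 samples were noted, as a description with no test, since all points share the 3 groups and replicate 3 of the 0.3 μM group. DUSP1 was nearest to SH2B3 (Pearson's r 0.987) and EPHA2 (0.973), and SPRY4 to FOSL1 (0.978) and SQSTM1 (0.974). SPRED1 was nearest to DUSP10 (0.957) and RNF7 (0.940). SH2B3, EPHA2, FOSL1 and DUSP10 are on the pathway lists above. The nearest genes were MFAP3 (0.976) for DUSP5, ULBP2 (0.960) for DUSP4, LCLAT1 (0.964) for DUSP6, SLC41A1 (0.967) for DUSP7, RCL1 (0.961) for SPRY2, FOXD1 (0.982) for SPRED2 and DLC1 (0.970) for PHLDA1. No member had another member among its nearest genes.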

How the data were processed

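RNA-seq of 9 KHM-5M samples was used. Trimmed reads were aligned by the authors to GRCh38, using Hisat2 (2.0.5 in the submitters' processing notes) and counted them per gene, with HTseq by the methods and featureCounts 1.5.0-p3 by those notes. The deposited counts are raw, and the deposited FPKM values divide them by gene length and by a library size close to the summed counts. The authors' DESeq2 fold changes and p-values were not used. Whether counting used strand is not given in the sources used here. The methods name 2 biological replicates per condition, and the labels give 3.

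Genes were kept by filterByExpr (minimum count 10), which all 10 members passed in each comparison, normalized by TMM and tested with edgeR 4.0.16 (R 4.3.3) on the groups compared, with adjustment over all genes tested. Alternatives were DESeq2 1.42.0, RLE, a lower count minimum of 1, a joint fit of all 9 samples, the unadjusted p, the replicate number as a block and each sample left out. The steps were tested on simulated data. No pair of replicates agreed within sampling noise, with chi-square values of 3.20 to 10.7 per degree of freedom. Likeness used log2(CPM + 0.5) of genes with at least 1 CPM. All members are named, and of each list up to 4 of the genes called at 1 μM with the largest change, or without any the 2 most abundant. SPRY3, PLAUR and ETV5 were named after their values were seen. The members and lists were chosen with earlier results of these data known.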

Additional observations from a re-analysis of the deposited data

Results flagged for a closer look

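For 4 genes the effect of the higher dose exceeded that of the lower one when both were compared directly by edgeR (adjusted p under 0.05, 3 samples against 3). The log2 difference was 0.89 for DUSP5, 0.44 for DUSP6, 0.33 for SPRY4 and 0.28 for SPRY2, and all 3 samples at 1 μM were higher than all 3 at 0.3 μM in each. As described above, only DUSP5 kept the call with each sample left out in turn. Dixon's test for a single outlying sample was not applied to these groups of 3 samples.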

How the results depend on the processing

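At 1 μM against DMSO the direction of all 10 members was kept under every alternative, and 103 of 110 single-gene results stayed on their side of the threshold. Over all genes, 1683 to 2977 passed with a sample left out, against 2752 with all samples. With the replicate block DUSP7 was no longer called (adjusted p 0.0561 by edgeR), and the number of members called was 6, against 7. The replicate numbers were not taken to pair the samples. Deviations of same-numbered samples correlated at -0.09 to 0.157, and those of other pairs at -0.116 to 0.114. Between DMSO and 0.3 μM, however, same-numbered pairs had 0.041 to 0.157, all above the other pairs (-0.116 to 0.009). With the replicate block, edgeR called 0 members and 1 gene in all at 0.3 μM. The unadjusted p gave 3 members at 0.3 μM, against 0. For 1 μM against 0.3 μM, leaving out single samples gave 1 to 5 members, and SPRY2 was not called by DESeq2 (adjusted p 0.0511), with a minimum count of 1 (0.0518 by edgeR), with all 9 samples (0.0655) or with the block (0.0512). DUSP1 was called with a minimum count of 1 (adjusted p 0.0474 by edgeR) and with the block (0.0160). With samples left out, the log2 fold change at 0.3 μM ranged from -0.11 to 0.13 for DUSP6, -0.01 to 0.15 for PHLDA1 and -0.01 to 0.09 for SPRED2, and that of PHLDA1 between the doses from -0.02 to 0.13. Causes were not tested. With 66 to 68 counts in DMSO, DUSP4 had the largest standard error of the members.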
